A study of Mus musculus with 24 samples.

Results

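The HoxB cluster is the group of Hox genes that lie side by side on mouse chromosome 11. Its members were taken by symbol, and 9 of the 19938 genes tested here belong to it: Hoxb1, Hoxb2, Hoxb3, Hoxb4, Hoxb5, Hoxb6, Hoxb7, Hoxb9 and Hoxb13. Each of the 9 was read by a single probe set annotated to that gene alone, out of 35556 probe sets on the array. RNA came from P19 cells, a mouse embryonal carcinoma line, grown as a monolayer on gelatine and hybridised to 24 arrays. All-trans retinoic acid (ATRA), the natural ligand of the retinoic acid receptors, was given at 1 µM, as was BMS753, a synthetic ligand that activates RARα. BMS641, which activates RARβ, and BMS961, which activates RARγ, were each given at 0.1 µM. Each of these 4 agents has 1 array at each of 2, 6, 24, 48 and 72 h. The reference is 4 arrays of cells given ethanol vehicle (EtOH), for which no time is given, so a change against EtOH can include change with time in culture. The agents share the same times among themselves. Nothing in the labels says whether arrays came from separate cultures, so every p-value below measures the spread between these arrays. That spread may be technical, and in tests that pool times it also holds differences between the agents in their course over time.

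Hox genes encode homeodomain transcription factors that give cells their position along the head-to-tail axis of the embryo. Within a cluster the genes at the 3′ end are used earlier and further towards the head than those at the 5′ end, and retinoic acid, acting through RAR and RXR receptors bound at response elements in and around the clusters, is a known inducer of the 3′ genes in the hindbrain and in embryonal carcinoma cells. From 3′ to 5′ the HoxB genes measured here are Hoxb1, Hoxb2, Hoxb3, Hoxb4, Hoxb5, Hoxb6, Hoxb7, Hoxb9 and, after a wide gap, Hoxb13. A HoxB gene with no probe set annotated to it alone is not placed in this order.

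All values are log2 intensities, and a difference of 1 is a 2-fold change. Array medians ran from 6.50 to 6.68. EtOH arrays differed from each other with an SD of 0.0941 to 0.143 over all genes, and no pair held identical values. For tests, the 2 and 6 h arrays of an agent formed its early phase and the 24, 48 and 72 h arrays its late phase. A gene was called when the Benjamini-Hochberg adjusted p of limma's moderated test, over all genes of the comparison, was under 0.05. Of the embryonal carcinoma markers, Pou5f1 (12.9), Sox2 (11.5), Utf1 (11.8), Tdgf1 (11.5) and Lin28a (11.4) were among the brightest genes of the EtOH arrays, while Zfp42 (4.83) and Dppa5a (5.49), which mark embryonic stem cells, were among the dim ones.

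Late in ATRA, every HoxB gene measured except Hoxb13 was higher than in EtOH, from 1.63-fold for Hoxb7 to 21.9-fold for Hoxb2. The call was made for 8 of 9 members, all in that direction, beside 17.9% of all genes called higher. Late in BMS753, 5 of 9 members were called higher (Hoxb1, Hoxb2, Hoxb4, Hoxb5 and Hoxb9), beside 6.52% of all genes. Without the 24 h arrays Hoxb3 (0.82) and Hoxb7 (0.30) were also called higher late in BMS753, and Hoxb13 (-0.51) was called lower. Early in ATRA and early in BMS753 Hoxb13, the 5′-most gene, was the 1 member called, and it was higher in both, beside 0.823% and 0.301% of all genes. With BMS641 and BMS961, 0 of 9 members were called in either phase. The median change of the 9 members was 2.48 late in ATRA and 1.07 late in BMS753, where the median of all genes was 0.03 and -0.01. At the same late times Hoxb2, the member most changed with ATRA (4.45), differed from EtOH by 0.51 ± 0.30 with BMS961 and 0.15 ± 0.30 with BMS641.

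**Figure D1:**
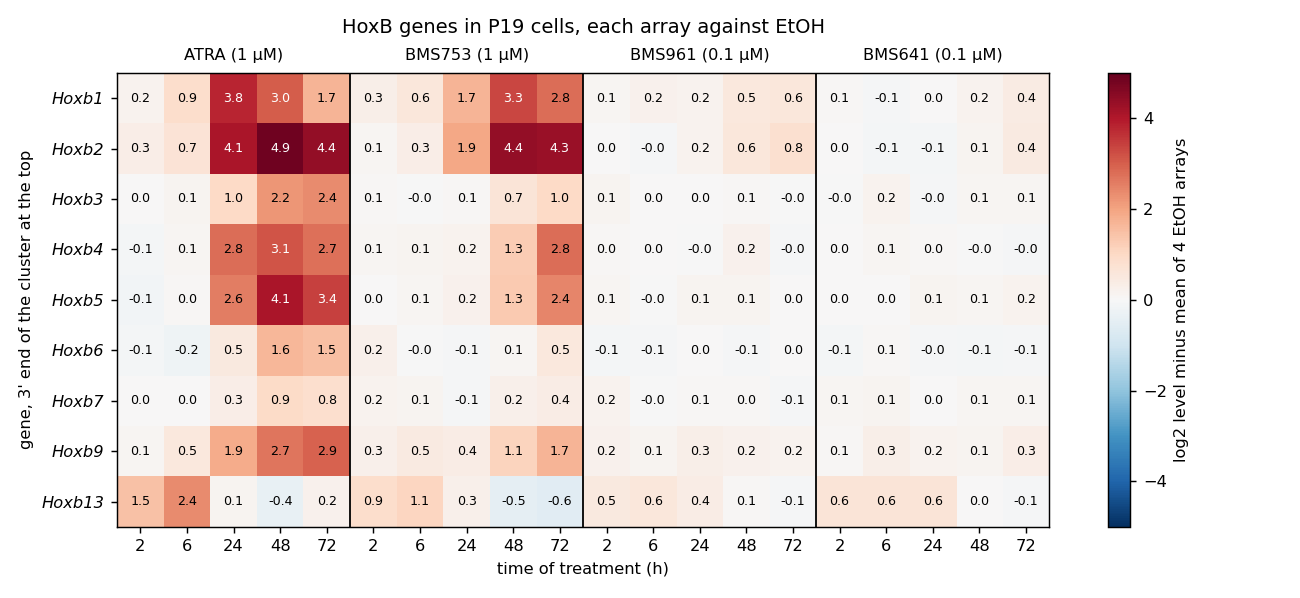
Heat map of the log2 difference of each array from the mean of the EtOH arrays, with the 9 HoxB genes as rows in chromosomal order and the arrays as columns by agent and time. The largest difference with either 1 µM agent is that of Hoxb2 at 48 h (4.86 with ATRA and 4.39 with BMS753), and Hoxb13 is highest at 2 and 6 h.

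Hoxb1 and Hoxb2, the 3′ pair, act in the hindbrain, where Hoxb1 sets the identity of rhombomere 4 and Hoxb2 lies downstream of it. Hoxb1 had log2 levels of 7.22, 7.90, 10.86, 10.07 and 8.72 with ATRA at 2, 6, 24, 48 and 72 h. With BMS753 they were 7.34, 7.58, 8.74, 10.35 and 9.82, against 6.92, 7.01, 7.03 and 7.16 on the EtOH arrays. All 10 arrays of ATRA and BMS753 were above the highest EtOH array. The ATRA course peaked at 24 h and was 2.14 lower at 72 h, whereas the BMS753 course peaked at 48 h. The late change was 2.85 ± 0.38 with ATRA (SE, limma adjusted p = 6.25e-05) and 2.61 ± 0.38 with BMS753 (adjusted p = 0.000503). The early changes of 0.53 ± 0.43 with ATRA and 0.43 ± 0.43 with BMS753 did not pass the test (adjusted p = 0.940 and 0.814).

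Hoxb2 had log2 levels of 7.29, 7.63, 11.05, 11.83 and 11.38 with ATRA at the same times. BMS753 gave 7.05, 7.29, 8.89, 11.35 and 11.27, and the EtOH arrays had 6.88, 6.86, 7.16 and 6.96. The late arrays of both agents stood clear of EtOH, and unlike the ATRA course of Hoxb1 neither course of Hoxb2 had dropped far by 72 h. Its late change was the largest of the cluster with either agent, 4.45 ± 0.30 for ATRA (limma adjusted p = 1.70e-07) and 3.54 ± 0.30 for BMS753 (adjusted p = 8.04e-06).

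The sequence around the RefSeq start of Hoxb1 is given because this gene had its highest ATRA level at 24 h, ahead of the other members called late. It spans 250 bases before to 50 bases after the start (RefSeq, GRCm38.p6, plus strand, chr11:96365508-96365807), and capitals mark the single match, at bases 89 to 96, to TGATNNAT, a form of the site bound jointly by Pbx and Hox proteins.
Hoxb1: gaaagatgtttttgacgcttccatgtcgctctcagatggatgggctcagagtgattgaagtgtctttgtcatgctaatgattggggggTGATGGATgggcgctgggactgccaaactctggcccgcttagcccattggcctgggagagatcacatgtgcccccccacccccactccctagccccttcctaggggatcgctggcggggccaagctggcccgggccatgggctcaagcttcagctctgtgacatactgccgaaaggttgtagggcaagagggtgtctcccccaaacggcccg
That motif was found, on either strand, in 8.85% of 32851 promoter windows of this length. The retinoid half-sites AGGTCA and AGTTCA, their direct repeats DR2 and DR5, and TATAAA had no match in this window.

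Hoxb3, Hoxb4 and Hoxb5 come next along the cluster and act in the hindbrain and anterior spinal cord. Hoxb4 had log2 levels of 5.39, 5.57, 8.29, 8.61 and 8.22 with ATRA from 2 to 72 h. With BMS753 the levels were 5.58, 5.60, 5.64, 6.74 and 8.25, against 5.38, 5.52, 5.54 and 5.47 with EtOH. With ATRA all 3 late arrays were far above EtOH, whereas with BMS753 the 24 h array was 0.16 above the EtOH mean and the 72 h array 2.77 above it, next to 2.74 for ATRA at 72 h. The late change was 2.89 ± 0.33 with ATRA (limma adjusted p = 2.00e-05) and 1.40 ± 0.33 with BMS753 (adjusted p = 0.0120). Without the 48 h arrays the BMS753 call was lost, with an adjusted p of 0.0620.

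Hoxb5 had levels of 5.29, 5.47, 7.97, 9.50 and 8.85 with ATRA. BMS753 gave 5.44, 5.53, 5.63, 6.71 and 7.87, and EtOH 5.42, 5.39, 5.43 and 5.44. The EtOH arrays lie close together, and the ATRA late arrays are all well above the BMS753 arrays of the same hour. The late change was 3.35 ± 0.30 with ATRA (limma adjusted p = 3.05e-06) and 1.32 ± 0.30 with BMS753 (adjusted p = 0.0101). Without the 72 h arrays its adjusted p with BMS753 was 0.0807.

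Hoxb3 had levels of 7.06, 7.16, 8.02, 9.24 and 9.40 with ATRA. BMS753 gave 7.08, 7.00, 7.10, 7.69 and 8.01, and EtOH 7.08, 6.96, 7.13 and 6.94. Its ATRA course was still highest at 72 h, and the BMS753 arrays left the EtOH range only at 48 and 72 h. The late change was 1.86 ± 0.18 with ATRA (limma adjusted p = 6.14e-06) and 0.57 ± 0.18 with BMS753, which just missed the threshold (adjusted p = 0.0513). The RefSeq span of Hoxb3 encloses Hoxb4, and whether shared precursor RNA adds to the signal of the pair was not tested.

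The window around the RefSeq start of Hoxb4 is the only other HoxB promoter sequence used here (GRCm38.p6, plus strand, chr11:96318017-96318316). Capitals mark its single match to the retinoid half-site AGGTCA, which lies on the minus strand at bases 170 to 175 and therefore reads TGACCT.
Hoxb4: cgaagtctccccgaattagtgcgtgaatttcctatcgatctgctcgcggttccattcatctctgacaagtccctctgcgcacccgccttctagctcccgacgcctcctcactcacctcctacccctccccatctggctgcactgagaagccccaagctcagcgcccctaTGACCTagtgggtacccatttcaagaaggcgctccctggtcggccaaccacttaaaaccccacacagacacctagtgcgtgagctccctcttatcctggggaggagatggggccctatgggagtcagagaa
A match to AGGTCA on either strand was found in 16.3% of the promoter windows. AGTTCA (14% of windows), TGATNNAT, TATAAA (13.6%), DR2 (0.268%) and DR5 (0.0974%) had no match in the Hoxb4 window.

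Mir10a, a microRNA gene beside Hoxb4 and inside the RefSeq span of Hoxb3, was also measured. Its mature product is shown with the seed, bases 2 to 8, in capitals (RefSeq, GRCm38.p6, plus strand, chr11:96317186-96317208).
mmu-miR-10a-5p: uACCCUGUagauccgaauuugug
The probe set reads RNA from the locus and not the mature product as such. It differed from the EtOH mean by 0.05, 0.11, 0.69, 2.71 and 1.96 with ATRA from 2 to 72 h, and by 0.18, -0.01, 0.07, 0.14 and 0.53 with BMS753. The EtOH arrays had levels of 4.14, 4.07, 4.02 and 3.95. Its late change was 1.78 ± 0.26 with ATRA (limma adjusted p = 0.000124). The late ATRA level exceeded that of BMS753 by 1.54 ± 0.28 (adjusted p = 0.00534). Across the 24 arrays its Pearson correlation was 0.95 with Hoxb3 and 0.82 with Hoxb4, over points that share arrays and times.

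Hoxb6, Hoxb7 and Hoxb9 are further 5′ and pattern the trunk. Hoxb9 had log2 levels of 7.73, 8.17, 9.49, 10.30 and 10.57 with ATRA. BMS753 gave 7.91, 8.10, 8.01, 8.75 and 9.34, and EtOH 7.55, 7.67, 7.66 and 7.67. All 10 arrays of the agents were above EtOH, and both courses were highest at 72 h. Its late change was 2.48 ± 0.18 with ATRA (limma adjusted p = 5.59e-07) and 1.07 ± 0.18 with BMS753 (adjusted p = 0.00160), so Hoxb9 was called with both agents while Hoxb6 and Hoxb7, which lie 3′ of it, were called with ATRA only by this threshold.

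Hoxb6 had levels of 5.54, 5.41, 6.15, 7.29 and 7.17 with ATRA. BMS753 gave 5.88, 5.63, 5.57, 5.73 and 6.19, and EtOH 5.52, 5.65, 5.65 and 5.76. The ATRA late arrays are above EtOH, while of the BMS753 arrays those at 6, 24 and 48 h lie inside the EtOH range. The late change was 1.22 ± 0.17 with ATRA (limma adjusted p = 9.42e-05) and 0.18 ± 0.17 with BMS753 (adjusted p = 0.571). By its mean over all 24 arrays Hoxb6 was the dimmest member, at percentile 31.7 of all genes.

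Hoxb7 had levels of 5.82, 5.81, 6.11, 6.74 and 6.62 with ATRA. BMS753 gave 5.95, 5.94, 5.73, 6.04 and 6.14, and EtOH 5.64, 5.76, 5.79 and 5.97. Of the arrays of these agents, the late ATRA arrays and the BMS753 arrays at 48 and 72 h are above the EtOH range. The late change was 0.70 ± 0.10 with ATRA (limma adjusted p = 0.000148) and 0.18 ± 0.10 with BMS753 (adjusted p = 0.304).

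**Figure D2:**
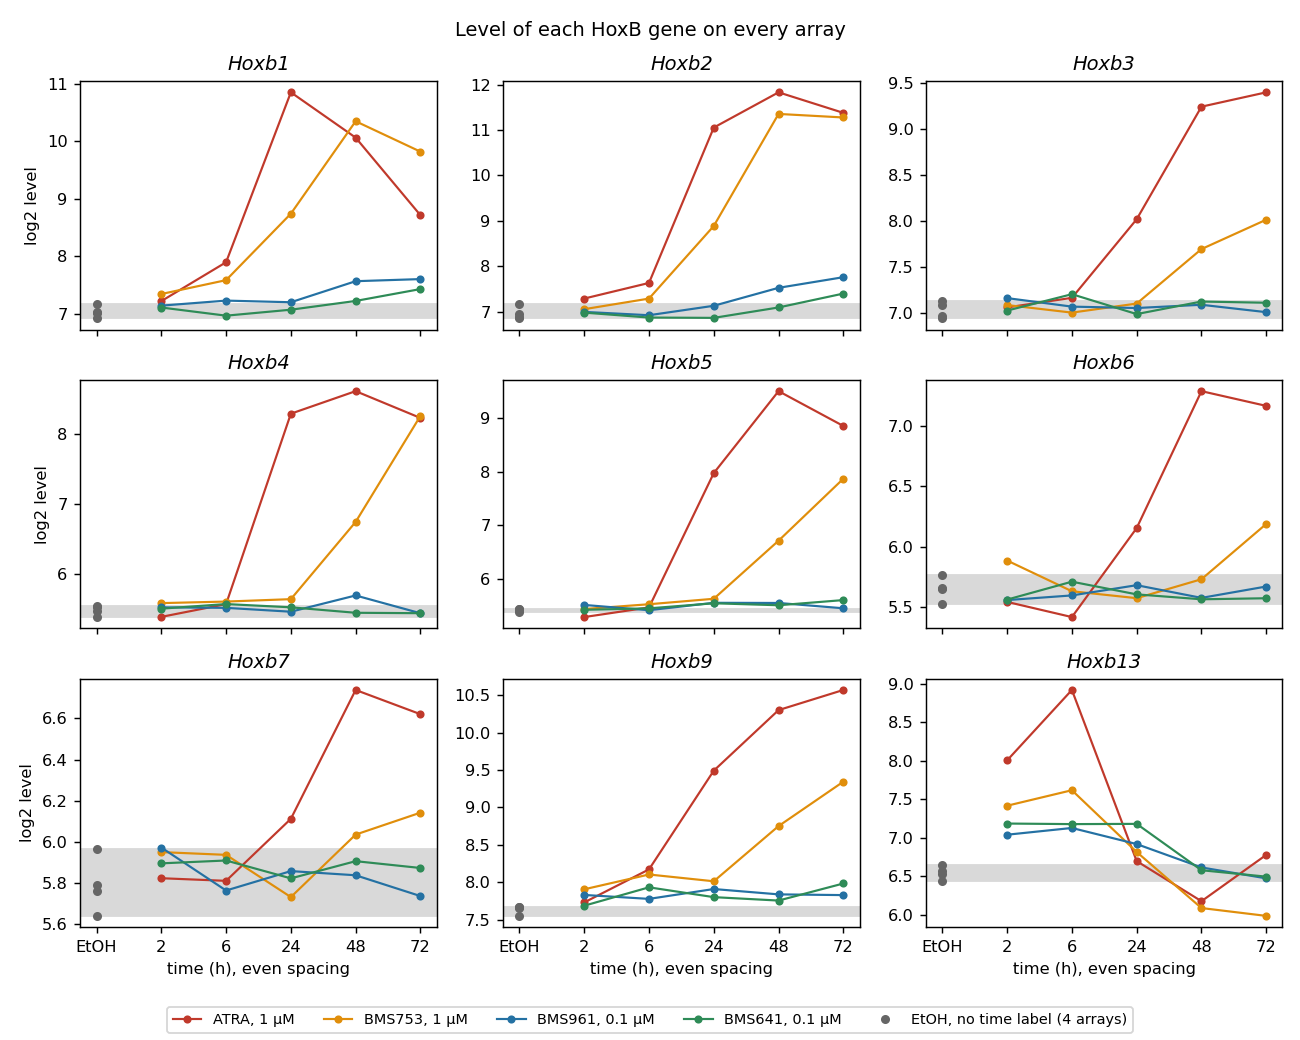
Log2 level of each HoxB gene (y axis) by time in hours (x axis, equal spacing), with a line for each agent and dose, the 4 EtOH arrays as points at the left and their range as a grey band. The ATRA course of Hoxb1 is highest at 24 h and that of Hoxb13 at 6 h, whereas those of Hoxb3 and Hoxb9 are highest at 72 h.

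The order in which members became high was read as the first time from which a gene stayed at least 1 above the EtOH mean. With ATRA this was 24 h for Hoxb1, Hoxb2, Hoxb4, Hoxb5 and Hoxb9 and 48 h for Hoxb3 and Hoxb6. Hoxb7 never met it by the probe set annotated to it alone. With BMS753 the onset was 24 h for Hoxb1 and Hoxb2 and 48 h for Hoxb4, Hoxb5 and Hoxb9, while Hoxb3, Hoxb6 and Hoxb7 had none. A probe set shared by Hoxb7 and another HoxB gene was left out of this order. At 48 and 72 h it was 3.95 and 3.57 above its EtOH mean with ATRA, and 1.06 and 1.76 above it with BMS753. Hoxb13 had no lasting onset with either agent. It first passed 1 at 2 h with ATRA and at 6 h with BMS753, ahead of every other member. Among the other members, the order along the chromosome at this threshold was broken in 2 places with ATRA. Hoxb3 was later than its 5′ neighbours Hoxb4 and Hoxb5, with 0.99 at 24 h, a value that passed 1 when EtOH replicate 1 or 3 was left out. Hoxb9 was earlier than Hoxb6 and Hoxb7, which lie 3′ of it, and this also held with BMS753. At a threshold of 0.5 Hoxb3, Hoxb4, Hoxb5 and Hoxb6 all had an onset of 24 h with ATRA, so the break at Hoxb3 was gone. Hoxb1, Hoxb2 and Hoxb9 then had 6 h and Hoxb7 had 48 h, so Hoxb9 was still ahead of Hoxb6 and Hoxb7. These onsets carry no test, since each time is 1 array.

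The courses can also be read as the share of a gene's own highest log2 difference that it had reached at 24 h. With ATRA it was 100% for Hoxb1, 84.1% for Hoxb2, 41.7% for Hoxb3, 89.7% for Hoxb4, 62.6% for Hoxb5, 30.8% for Hoxb6, 33.9% for Hoxb7 and 63.3% for Hoxb9. With BMS753 it was 51.5% for Hoxb1 and 43.8% for Hoxb2, but 7.07% for Hoxb3, 5.72% for Hoxb4, 8.55% for Hoxb5 and 22.1% for Hoxb9. At 24 h in BMS753 the 3′ pair was thus well on its way while Hoxb3, Hoxb4 and Hoxb5 were close to their EtOH levels.

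Late against early arrays of the same agent were compared as well, a contrast whose change does not use the EtOH levels, although the EtOH arrays enter the estimate of the spread. With ATRA 8 of 9 members were called higher late (14.9% of all genes) and Hoxb13 was called lower (16.7% of all genes). With BMS753 Hoxb1, Hoxb2 and Hoxb5 were called higher late (3.26% of all genes) and Hoxb13 lower (7.57%). Hoxb2 was higher late by 3.33 with BMS753 (limma adjusted p = 0.000110). Hoxb1 was higher by 2.18 (adjusted p = 0.00851), a call lost without the arrays at 2 h (0.143), 6 h (0.116) or 48 h (0.0724). Hoxb5, at 1.25 (adjusted p = 0.0390), lost its call when any single EtOH array was left out. Its call was also lost without the arrays at 48 h (adjusted p = 0.0856) or 72 h (0.160), and with no time term (0.0758). Without the 2 h or the 6 h arrays, which leaves 1 early array of the agent, its change was 1.21 or 1.30. Hoxb4 (1.28, adjusted p = 0.0508) and Hoxb9 (0.70, adjusted p = 0.0538) just missed the threshold. Fitted on the 5 arrays of the agent alone with no time term, an alternative chosen after seeing the data, 1 member (Hoxb4, adjusted p = 0.0417) was called by limma for ATRA and 0 for BMS753, with 9 and 3 members at an unadjusted p under 0.05.

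**Figure D3:**
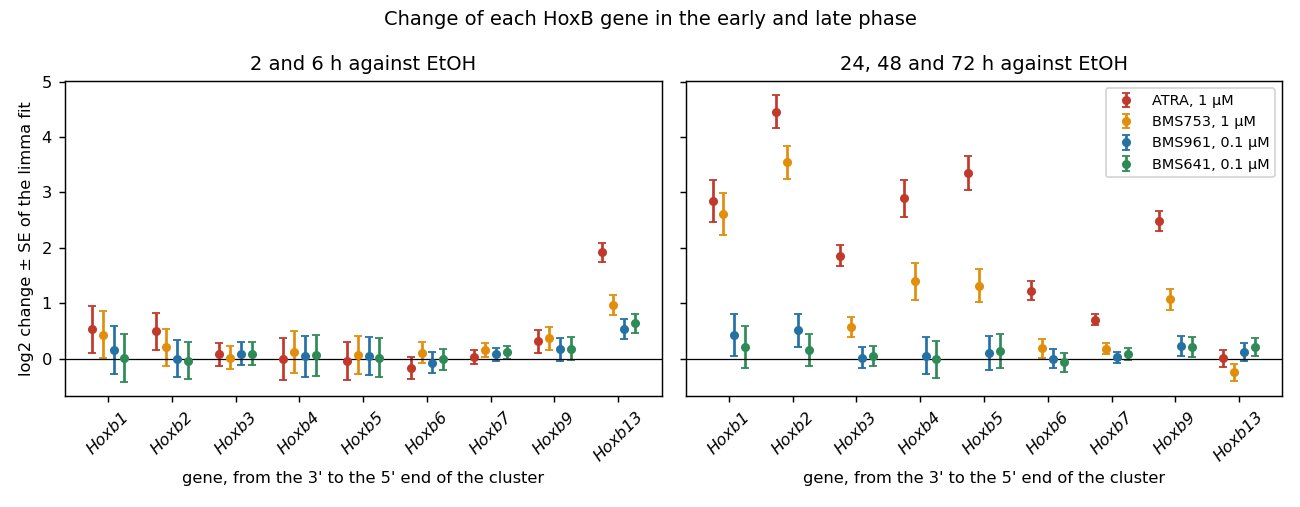
Log2 change against EtOH in the early and the late phase for each HoxB gene and agent from the limma fit, with the standard error as bars. Late in ATRA 8 genes lie clear above 0 and Hoxb13 lies at 0.00, while early in ATRA the change of Hoxb13 is 1.91.

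Hoxb13, known in the mouse for its part in the tail end of the axis and in the prostate, ran opposite in time to the rest. Its log2 levels were 8.01, 8.92, 6.70, 6.18 and 6.78 with ATRA from 2 to 72 h. With BMS753 they were 7.42, 7.62, 6.82, 6.09 and 5.99, and EtOH gave 6.57, 6.53, 6.65 and 6.44. The level was highest at 6 h with both agents, and at 48 h both agents were below the lowest EtOH array, while at 72 h ATRA was above the EtOH range and BMS753 below it. The early change was 1.91 ± 0.18 with ATRA, or 3.77-fold (limma adjusted p = 2.91e-05), and 0.97 ± 0.18 with BMS753, or 1.96-fold (adjusted p = 0.0315). The BMS753 call was lost without any single EtOH array (adjusted p between 0.0661 and 0.0984) and without the arrays at 2 h (0.104), 6 h (0.419) or 48 h (0.0824). The late changes were 0.00 ± 0.16 with ATRA and -0.25 ± 0.16 with BMS753, neither of which passed the test (adjusted p = 0.992 and 0.349). Late minus early, the change was -1.91 ± 0.19 with ATRA (adjusted p = 1.71e-05) and -1.22 ± 0.19 with BMS753 (adjusted p = 0.00131).

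Hoxb13 was also above EtOH early with the 0.1 µM agents. Its levels with BMS961 were 7.04, 7.13, 6.92, 6.62 and 6.48 from 2 to 72 h. With BMS641 they were 7.19, 7.18, 7.18, 6.58 and 6.50. All 8 early arrays of the 4 agents were above the highest EtOH array, which also held for Hoxb9 among the members and for 1.4% of all genes. The early change was 0.54 ± 0.18 with BMS961 and 0.63 ± 0.18 with BMS641. Neither passed limma's test over all genes (adjusted p = 1.00 for both, unadjusted p = 0.00900 and 0.00293). When the spread was taken from the EtOH arrays alone, both passed (adjusted p = 0.00685 and 0.00385).

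At single times, each array was set against the 4 EtOH arrays on the assumption that lone arrays vary as those do, and a call also needed a 2-fold change. Hoxb13 was called with ATRA at 2 h (1.46 ± 0.10, limma adjusted p = 1.46e-06) and 6 h (2.37 ± 0.10, adjusted p = 1.76e-09) and with BMS753 at 6 h (1.07 ± 0.10, adjusted p = 1.91e-05). Its later dips below EtOH, of -0.37 with ATRA at 48 h and of -0.46 and -0.56 with BMS753 at 48 and 72 h, had adjusted p-values of 0.00845, 0.00339 and 0.000453 and were all under 2-fold. Hoxb1, Hoxb2 and Hoxb9 were already above EtOH with ATRA at 6 h, by 0.87, 0.67 and 0.54 (adjusted p = 2.54e-05, 0.000739 and 0.000397), also under 2-fold.

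Over all members, the single-time calls with ATRA were 1 at 2 h, 1 at 6 h, 5 at 24 h, 7 at 48 h and 7 at 72 h, all higher than EtOH, beside 0.171%, 0.637%, 1.41%, 3.38% and 5.33% of all genes. With BMS753 they were 0, 1, 2, 5 and 5, beside 0.0451%, 0.231%, 0.451%, 1.77% and 3.01%. BMS961 gave 0 at every time, beside 0.00502%, 0.01%, 0.0351%, 0.0401% and 0.0401%, and BMS641 gave 0 beside 0%, 0%, 0.0351%, 0.0201% and 0.015%.

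Mir196a-1 is a microRNA gene between Hoxb13 and Hoxb9, inside the RefSeq span of Gm51876, and miR-196a is known to target Hox messages. Its mature sequence is shown because the locus, like Hoxb13, was high early (RefSeq, GRCm38.p6, plus strand, chr11:96265187-96265208, seed in capitals).
mmu-miR-196a-5p: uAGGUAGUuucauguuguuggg
Its seed differs from that of miR-10a-5p. Here too the probe set reads RNA from the locus and not the mature product as such. The Mir196a-1 probe set differed from the EtOH mean by 1.32, 0.90, -0.33, -0.03 and 0.38 with ATRA from 2 to 72 h. With BMS753 the differences were 0.72, 0.92, 0.24, -0.12 and -0.12, and the EtOH arrays had levels of 5.60, 5.42, 5.35 and 5.42. It was highest at 2 and 6 h with both agents. With ATRA it was below the EtOH range at 24 h (adjusted p = 0.0405 at that single time) and above it at 72 h (adjusted p = 0.00875), both under 2-fold. The early change was 1.11 ± 0.16 with ATRA (limma adjusted p = 0.00235) and 0.82 ± 0.16 with BMS753 (adjusted p = 0.0491). From 2 to 72 h the differences were 0.61, 0.45, 0.28, 0.21 and 0.39 with BMS641. They were 0.37, 0.62, 0.32, 0.18 and 0.18 with BMS961. All of these lay above the EtOH range, and Mir196a-1 was not called with either 0.1 µM agent in either phase. Over the 24 arrays its Pearson correlation with Hoxb13 was 0.83. The correlation of Hoxb13 with the other 8 members ran from -0.43 to -0.28, and the 8 correlated with each other at 0.59 to 0.98.

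**Figure D4:**
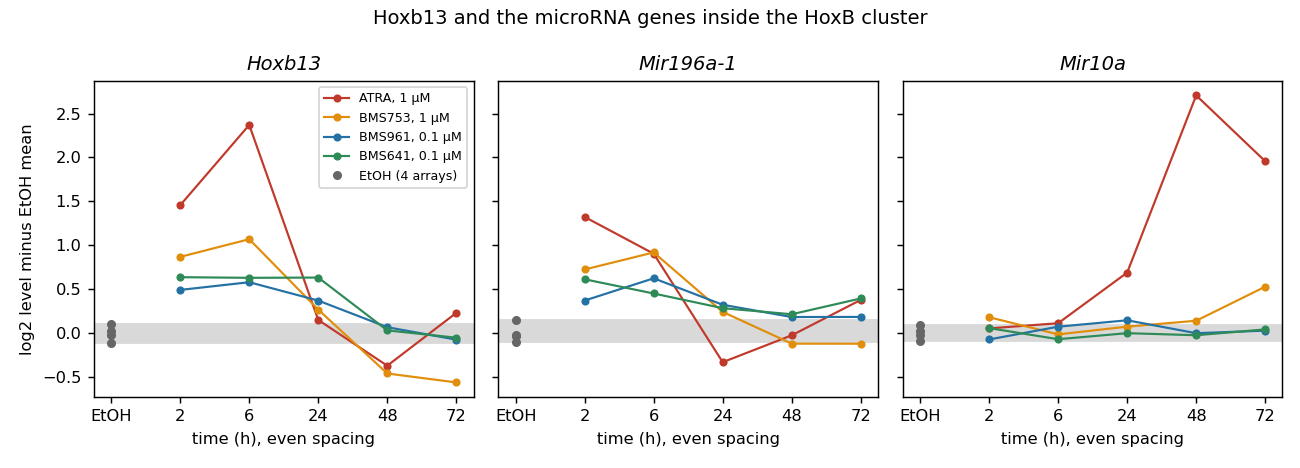
Log2 difference from the EtOH mean (y axis) by time in hours (x axis) for Hoxb13, Mir196a-1 and Mir10a, with a line for each agent and the 4 EtOH arrays as points and grey band. Hoxb13 and Mir196a-1 are high at 2 and 6 h with ATRA (1.46 and 2.37, and 1.32 and 0.90), whereas Mir10a is high at 48 and 72 h (2.71 and 1.96).

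ATRA and BMS753 were given at the same dose and times, so their levels were compared directly. Late, 6 of 9 members were called higher with ATRA than with BMS753: Hoxb3, Hoxb4, Hoxb5, Hoxb6, Hoxb7 and Hoxb9, beside 4.44% of all genes. The differences were 1.29 ± 0.20 for Hoxb3 (limma adjusted p = 0.00222), 1.49 ± 0.36 for Hoxb4 (0.0186), 2.04 ± 0.32 for Hoxb5 (0.00289), 1.04 ± 0.18 for Hoxb6 (0.00463), 0.52 ± 0.11 for Hoxb7 (0.0120) and 1.42 ± 0.20 for Hoxb9 (0.00129). Hoxb1 (0.24 ± 0.41, adjusted p = 0.724), Hoxb2 (0.91 ± 0.32, adjusted p = 0.0741) and Hoxb13 (0.25 ± 0.17, adjusted p = 0.330) did not pass, and for Hoxb1 the 95% interval of the ratio runs from 0.649-fold to 2.15-fold. Fitted on the ATRA and BMS753 arrays alone, 0 of the 6 calls passed, with 6 of the 9 members at an unadjusted p under 0.05. Without the 48 h arrays the count was 2.

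Time by time, the gap had a different course in different members. ATRA minus BMS753 at 24, 48 and 72 h was 2.11, -0.29 and -1.11 for Hoxb1. For Hoxb2 it was 2.17, 0.48 and 0.10, and for Hoxb4 2.65, 1.87 and -0.03. In these 3 genes the gap was largest at 24 h and had closed or turned by 72 h. The gap for Hoxb5 was 2.34, 2.79 and 0.98, for Hoxb3 0.92, 1.55 and 1.39, and for Hoxb9 1.48, 1.55 and 1.22. In these genes ATRA was still about 1 or more above BMS753 at 72 h. Early, 0 of 9 members were called by limma, and 0% of all genes, while 1 member had an unadjusted p under 0.05. That member, Hoxb13, was 0.94 ± 0.21 higher with ATRA (limma adjusted p = 0.247, unadjusted p = 0.000358), with differences of 0.59 at 2 h and 1.30 at 6 h.

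BMS961 and BMS641 were given at a dose below that of BMS753 and ATRA, so they are compared with each other and with EtOH. Apart from Hoxb13, the members differed from the EtOH mean by -0.09 to 0.79 over the BMS961 arrays. Over the BMS641 arrays the range was -0.10 to 0.43. The highest values were those of Hoxb2 at 72 h with either agent. Against EtOH, 0% of all genes were called with BMS641 in either phase and early with BMS961, and 0.00502% late with BMS961. At an unadjusted p under 0.05, 1 member (Hoxb13) passed early with each agent and 0 passed late.

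With BMS961, Hoxb1 and Hoxb2 had adjusted p-values under 0.05 at single late times, with changes below 2-fold. Hoxb1 was 0.53 above the EtOH mean at 48 h (limma adjusted p = 0.0129) and 0.57 above it at 72 h (adjusted p = 0.00610). Hoxb2 was 0.56 and 0.79 above it at those times (adjusted p = 0.0225 and 0.00134). In the phase fit the late changes were 0.42 ± 0.38 and 0.51 ± 0.30 and were not called. BMS961 against BMS641 gave 0 of 9 members called by limma in either phase, and 0% of all genes, and 0 members had an unadjusted p under 0.05. The late difference of Hoxb2 was 0.35 ± 0.32 and the early difference of Hoxb13 -0.10 ± 0.21.

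Genes just outside the cluster were measured too, 5 on each side. Snx11, a sorting nexin gene beyond Hoxb1, was called higher early with ATRA (0.44 ± 0.09, limma adjusted p = 0.0375), late with ATRA (0.71 ± 0.08, adjusted p = 1.97e-05) and late with BMS753 (0.31, adjusted p = 0.0218). Late with ATRA, 3 of the 10 were called higher and 2 lower, with changes from -0.34 to 0.71, beside 17.9% of all genes higher and 19% lower, so the count is near the background. Gm11529, the nearest measured gene beyond Hoxb1, changed by 0.10 and was not called, and Skap1, the next one, was called higher by 0.19. Hoxb7, the least changed of the 8 members called late with ATRA, had a change close to that of Snx11.

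Hox proteins bind DNA together with the TALE homeodomain cofactors Meis, Pbx and Pknox. Of 8 cofactors measured, 6 were called higher and 1 lower late with ATRA, beside 17.9% and 19% of all genes. Late with BMS753, 4 were higher and 1 lower, beside 6.52% and 6.94%. Meis1 was higher by 5.28 ± 0.51 late with ATRA and 3.85 with BMS753, and Meis2 by 5.52 ± 0.29 and 4.83. Pbx4 was lower by -0.21 and -0.23. Early with ATRA, Meis2 (1.63 ± 0.33) and Pbx2 (0.55 ± 0.11) were called higher. Of the Cdx genes, which activate trunk and tail Hox genes, Cdx1 was called late with ATRA (0.40 ± 0.15) and 0 of 3 were called late with BMS753. Of the hindbrain regulators of Hox genes, 2 of 4 were measured: Gbx2 was called higher late with ATRA (2.91) and Egr2, which activates Hoxb2 in the hindbrain, was called lower (-0.50).

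Among genes of retinoid signalling and metabolism, 4 of 14 measured were called higher early with ATRA, beside 0.823% of all genes, and 0 lower. The 4 were Rarb (3.78 ± 0.15), Cyp26a1 (3.36), Dhrs3 (2.01) and Rara (0.84). Rarb encodes a receptor and Cyp26a1 an enzyme that clears retinoic acid. These were thus called high in the phase in which Hoxb13 was the 1 HoxB gene called. Late, 10 were higher and 2 lower with ATRA, beside 17.9% and 19% of all genes. With BMS753 8 were higher and 0 lower, beside 6.52% and 6.94%. Of 6 Polycomb subunits and H3K27 demethylases, 2 were higher and 3 lower late with ATRA, where 17.9% and 19% of all genes were, including Ezh2 (0.27 ± 0.04), the methyltransferase of Polycomb complex PRC2, and Kdm6a (-0.34 ± 0.08), a demethylase that removes its mark.

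Hox genes of the other clusters with the same paralogue numbers were set beside the members. Late with ATRA 15 of 18 were called higher and 0 lower, beside 17.9% and 19% of all genes, with a median change of 1.56. Late with BMS753 10 of 18 were called higher, beside 6.52% of all genes, with a median of 0.75. Hoxa5 was higher by 4.97 ± 0.28 with ATRA and 3.04 with BMS753. Hoxa2 was higher by 3.29 ± 0.27 and 3.40. Early with ATRA 0 of 18 were called higher, beside 0.823% of all genes, and 0 lower, with a median change of 0.03. At 6 h with ATRA, Hoxa5 was 1.15 and Hoxa2 1.00 above the EtOH mean. The paralogues of Hoxb13 had early ATRA changes of 0.26 ± 0.08 for Hoxa13, -0.05 for Hoxc13 and -0.02 for Hoxd13, next to the 1.91 of Hoxb13, and the difference between paralogues was not tested.

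Cell type markers moved as well. Of 9 embryonal carcinoma markers, 6 were called lower late with ATRA and 2 late with BMS753, beside 19% and 6.94% of all genes. The list mean lay -3.15 to -0.55 from EtOH on the late ATRA arrays and -2.03 to 0.10 on the late BMS753 arrays. For the lists that follow, the share of all genes called higher late was 17.9% with ATRA and 6.52% with BMS753. Endoderm markers were called higher for 3 of 4 genes late with ATRA (Gata6 by 3.02) and for 2 of 4 with BMS753. Fibroblast and smooth muscle markers were higher for 3 of 4 with ATRA and 0 of 4 with BMS753. Of 6 neuron markers 2 (Dcx by 2.71 and Map2 by 1.26) were higher late with ATRA and 0 with BMS753. Of 5 neural progenitor markers 1 (Pax6 by 4.01) was higher with ATRA and 2 with BMS753 (Pax6 by 2.25). Of 4 posterior mesoderm markers 1 was higher (Meox1 by 2.14) and 1 lower (Tbx6 by -0.28) with ATRA, and 1 was higher with BMS753 (Meox1 by 1.52). Early, the phase in which Hoxb13 was called, 1 of 4 endoderm markers was higher with ATRA (Gata6 by 1.84) and 0 of 4 with BMS753. Of all genes 0.823% and 0.301% were called higher. The mean of the endoderm list lay 0.28 to 0.59 above EtOH with ATRA and 0.24 to 0.31 above it with BMS753. The other marker lists had 0 genes called early with either agent. The part of these shifts in the HoxB changes was not tested, and in bulk RNA a change in the number of cells of a type cannot be told apart from a change in RNA per cell.

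For each member the named genes with the most similar course over the 24 arrays were listed by Pearson's r. Hoxb1 was closest to Atp11a (0.99), Hoxb2 to Fgfr2 (0.99) and Meis1 (0.99), and Hoxb3 to Lhfpl2 (0.98), Hoxd3 (0.98) and Hoxd4 (0.97). Hoxb4 was closest to its paralogue Hoxc4 (0.99) and to Hoxc5 (0.98), Hoxb5 to Hs6st2 (0.98), Hoxb6 to Sh3kbp1 (0.96), Hoxb7 to Tmed4 (0.95), and Hoxb9 to Zfp9 (0.98), with Hoxa4 also among its closest genes. Hoxb13 was closest to Cidea (0.94), Cdr2l (0.93) and Hyls1 (0.92), and no Hox gene was among them. The arrays share agents, times and EtOH reference, so these are descriptions.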

How the data were processed

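Affymetrix Mouse Gene 1.0 ST arrays were used. The authors deposited log2 probe set values made with Affymetrix Expression Console 1.1, per the submitters' processing notes; background correction, summarization and normalization are not given in the sources used here. Of 35556 probe sets, 21789 had 1 gene symbol, 1621 several and 12146 none in GEO's platform annotation; probe sets with several were left out, and the brightest was kept for 999 genes with over 1, leaving 19938 genes. Limma 3.58.1 (R 4.3.3; lmFit, eBayes with trend) fitted EtOH and each agent in each phase, with terms for time shared by the agents (12 residual degrees of freedom), two-sided, adjusted by Benjamini-Hochberg at 0.05 over all genes. A second fit with a mean per array had 3 residual degrees of freedom. Both were run on simulated data with independent noise. For the second fit that noise had the EtOH spread, so the run could not test whether lone arrays vary as EtOH arrays do. Precision is limited by the number of arrays. The members and lists were chosen with earlier results of these data known. Named genes were all members, the 3 most correlated genes of each, genes between and 5 on either side of the cluster, and the lists. Alternatives covered normalization, filter, spread, time terms and arrays left out. Gene order and sequences came from RefSeq GRCm38.p6, whose promoter table held 2 of the 9 members. A probe set annotated to Hoxb7 together with another HoxB gene was left out of the tests.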

Additional observations from a re-analysis of the deposited data

Results flagged for a closer look

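On the EtOH arrays Hoxb9 had 1 array apart from the others: replicate 1 at 7.55, against 7.66 to 7.67 on the other 3, a gap of 0.909 of the range. Chance flags about 1 in 20 such groups, and 9 members were examined. The gap is small beside the late ATRA change of Hoxb9.

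The difference between the late and the early effect of ATRA passed limma's test for all 9 members, with 2.32 for Hoxb1, 3.96 for Hoxb2, 1.78 for Hoxb3, 2.90 for Hoxb4, 3.40 for Hoxb5, 1.39 for Hoxb6, 0.67 for Hoxb7, 2.17 for Hoxb9 and -1.91 for Hoxb13. With BMS753 it passed for 4 members, with 2.18 for Hoxb1, 3.33 for Hoxb2, 1.25 for Hoxb5 and -1.22 for Hoxb13. Fitted on the 5 arrays of 1 agent alone with no time term, 1 of the 9 calls was made with ATRA and 0 of the 4 with BMS753. Hoxb13 is the 1 member whose effect was larger early with either agent.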

How the results depend on the processing

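The arrays of the agents are matched by time, which the fit holds as shared terms, and carry no replicate numbers. Over the alternatives run, no called member changed direction, and the late ATRA count stayed at 8 and the early ATRA count at 1 when each EtOH array or time was left out in turn. The spread was also taken from the EtOH arrays alone, on the assumption that lone arrays vary as those do. The member counts were then 4 early with ATRA, 3 early with BMS753, 1 early with BMS641, and 1 early and 3 late with BMS961. For ATRA against BMS753 they were 1 early and 9 late. BMS753 late and BMS753 late against early each gave 7, among them Hoxb13, which was lower (-0.25 and -1.22). The share of all genes called under this setting is not given here, so these counts have no background beside them. The early BMS753 count was 0 after a further quantile normalization (Hoxb13 adjusted p = 0.0641) and 0 with no term for time (0.162). Fitted on the compared agents alone, ATRA against BMS753 late gave 0 and BMS961 against BMS641 late gave 1 (Hoxb2, 0.35, adjusted p = 0.0220). Leaving out each EtOH array, or the arrays of each time, in turn gave 0 to 1 for BMS753 early, 4 to 8 for BMS753 late, 2 to 6 for ATRA against BMS753 late, 8 to 9 for ATRA late against early and 2 to 7 for BMS753 late against early. Hoxb1 lost its late-against-early call without the 2 h arrays with ATRA (adjusted p = 0.0671). The cause of these shifts was not tested. Late against early, fitted on the arrays of 1 agent alone with no time term (chosen after seeing the data, 5 arrays), gave 1 for ATRA and 0 for BMS753, and Hoxb6 has no value with the dimmest genes left out. Dim probe sets limit what can be measured near background.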

Other observations

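The probe set annotated to Hoxb7 together with another HoxB gene, which entered no test, differed from its EtOH mean by -0.23, 0.19, 0.99, 3.95 and 3.57 with ATRA from 2 to 72 h and by 0.01, 0.10, 0.03, 1.06 and 1.76 with BMS753. With BMS641 and BMS961 it stayed between -0.17 and 0.18. Its 48 and 72 h values with ATRA are above those of the Hoxb7 probe set (0.95 and 0.83).

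At a lower onset threshold of 0.5 above the EtOH mean, Hoxb13 still met no lasting onset with either agent, since its level was below the EtOH range at 48 h.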
